A study of Homo sapiens with 14 samples.

Results

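UNC1215 was set directly against GSK343 in U2OS cells, an established human osteosarcoma line, using the 1 library of each compound in the replicate 1 table. These are 2 of the 14 libraries of the series, and 12804 of the 28501 gene rows in that table, those that averaged 1 FPKM or more across its 10 columns, were compared. UNC1215 is a ligand of the methyl-lysine reader L3MBTL3 and was given at 50 μM for 24 h. GSK343 is an inhibitor of the H3K27 methyltransferase EZH2 and was given at 10 μM for 24 h, so the times match and the doses do not. DMSO at 0.5% by volume, with no time stated, was the solvent control. The other 7 libraries of the table were 2-PCPA at 1 mM, BIX-01294 at 5 μM and GSK-J4 at 20 μM, each for 12 h, and rapamycin at 5 μM, BRD4770 at 20 μM, VPA at 20 μM and SAHA at 1 μM, each for 24 h. A replicate 2 table held second libraries of GSK343 and DMSO, as well as of 2-PCPA and rapamycin, and UNC1215 had no second library. All cells were of the same line in the same medium with serum.

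The pair was chosen by measured values, the sterol gene levels that were high in both libraries in earlier results of these data, so those levels are a description and no p-value is given. FPKM is a read count scaled to transcript length and library size, and differences are on the log2(FPKM + 1) scale, which understates the difference of low genes. A gene is called different at an absolute difference of at least 1 on that scale, a 2-fold difference of FPKM + 1. The row just inside the limit on low values was AK093551, at a mean of 1.00 FPKM with 0 FPKM in UNC1215 and 1.56 FPKM in GSK343, and the row just outside was DQ580909, at 0.999 FPKM with 0.375 and 1.21 FPKM. In bulk RNA, fewer cells that express a gene and less RNA per cell cannot be told apart.

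Cholesterol is built from acetyl-CoA through the mevalonate pathway to squalene, and squalene is then cyclised and modified to cholesterol. When membranes of the endoplasmic reticulum hold little sterol, the escort protein SCAP carries the transcription factor SREBP2 to the Golgi, where it is cut and freed to switch on the genes of synthesis and of LDL uptake. INSIG proteins hold SCAP back when sterol is plentiful. SREBP sites lie near the start of such genes, often beside a CCAAT box bound by NF-Y.

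The promoters of 4 sterol genes are shown because each carries some of the letters marked below, and because these genes had high levels in both libraries. In the stretches of LSS and HMGCS1 the only marked letters are CCAAT or ATTGG. Each is the 200 bases before the start of the gene on its own strand, from RefSeq on GRCh38.p14. Capitals mark CCAAT (or ATTGG on the other strand), the sterol regulatory element core TCACCCCAC (or GTGGGGTGA) and the E-box TCACGTG (or CACGTGA). The positions are chr22:41832905-41833104 (plus strand) for SREBF2, chr7:155297678-155297877 (plus strand) for INSIG1, chr21:46228775-46228974 (minus strand) for LSS and chr5:43313413-43313612 (minus strand) for HMGCS1.
SREBF2: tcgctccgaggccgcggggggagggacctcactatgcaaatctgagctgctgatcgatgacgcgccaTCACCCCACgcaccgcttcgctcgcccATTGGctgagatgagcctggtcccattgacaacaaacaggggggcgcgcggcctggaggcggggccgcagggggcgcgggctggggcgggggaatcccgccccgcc
INSIG1: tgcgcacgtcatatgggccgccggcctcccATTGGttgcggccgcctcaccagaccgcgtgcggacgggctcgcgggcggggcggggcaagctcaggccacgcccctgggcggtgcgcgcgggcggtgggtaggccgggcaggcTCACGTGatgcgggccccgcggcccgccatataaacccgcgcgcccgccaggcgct
LSS: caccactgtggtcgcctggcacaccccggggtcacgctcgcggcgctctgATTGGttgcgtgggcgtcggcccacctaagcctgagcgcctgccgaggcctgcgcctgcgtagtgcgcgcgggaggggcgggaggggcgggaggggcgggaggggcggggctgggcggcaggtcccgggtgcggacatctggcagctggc
HMGCS1: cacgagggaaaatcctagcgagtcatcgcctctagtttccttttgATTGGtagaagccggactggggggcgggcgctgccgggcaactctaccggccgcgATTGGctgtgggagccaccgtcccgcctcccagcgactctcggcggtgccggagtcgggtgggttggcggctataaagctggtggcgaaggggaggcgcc
Of the 38 genes of the 3 sterol lists, 30 matched a promoter window of 300 bases. A gene was counted if any of its windows held the letters, while the share of all windows counts each window. The shares of genes and of windows are therefore unlike measures, and enrichment was not tested. CCAAT was found on either strand in 20 of these 30 genes (66.7%), against 34.6% of all 35116 windows. TCACCCCAC was found in SREBF2 alone, against 0.43% of all windows, and TCACGTG in INSIG1, LSS and SC5D, against 3.71%. In the stretches shown these letters do not overlap one another, and the LSS match to TCACGTG lies outside the stretch shown.

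The GSK343 replicate 1 library differed from DMSO along with the GC content of the transcripts. Against DMSO of the same table, its median difference was −0.23 in the 20% of genes with the lowest GC content and 0.44 in the 20% with the highest. That gap of 0.68 was larger in size than in the other 8 treated libraries of the table, which lay between −0.47 (BIX-01294) and 0.42 (VPA). It was 0.08 in UNC1215 and 0.11 in GSK343 replicate 2. Relative depth, read from the steps between low FPKM values, was 0.693 for UNC1215 and 1.06 for GSK343, each relative to DMSO. The absolute depth is unknown. Genes of olfactory receptors, normally silent here, were above 0 for 2.40% of 375 in UNC1215 and 2.67% in GSK343. Of 12 osteoblast and mesenchymal markers, 6 had at least 1 FPKM in UNC1215 and 6 in GSK343, with the osteoblast genes SP7, BGLAP and IBSP at 0 in both. Of 10 epithelial markers 5 and 4 had at least 1 FPKM in UNC1215 and GSK343, of 10 hematopoietic markers 1 and 1, and of 8 endothelial markers 1 and 2. Their summed levels were 1149 and 1296 FPKM for the mesenchymal list, 832 and 857 for the epithelial list, 2.37 and 2.63 for the hematopoietic list and 2.95 and 3.31 for the endothelial list. Their part in the results was not tested.

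**Figure D1:**
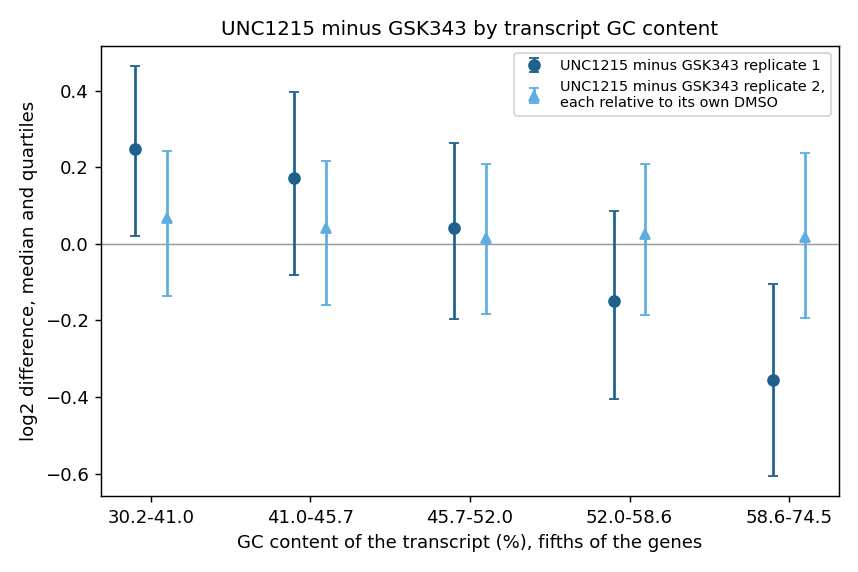
Median UNC1215 minus GSK343 difference (log2 of FPKM + 1, vertical axis) in 5 equal groups of genes by GC content of the longest protein-coding transcript (percent, horizontal axis); bars span the quartiles over genes. With GSK343 replicate 1 the medians go from 0.25 to −0.35 as GC content rises, and with GSK343 replicate 2 they stay between 0.02 and 0.07.

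The direct difference carried that GC gradient. Its median was 0.25 in the lowest and −0.35 in the highest of the 5 GC groups, and over 11469 genes it correlated with GC content with a Spearman coefficient of −0.50, as a description across genes of the same 2 libraries. With GSK343 replicate 2 in its place, each compound taken relative to DMSO of its own table, the coefficient was −0.04. The results are therefore given as measured, with the GC trend removed and with GSK343 replicate 2. The last form still rests on the same UNC1215 and DMSO libraries. Nothing in the labels tells whether the GSK343 replicates came from separate cultures, so the gap between them may be technical.

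As measured, 601 of 12804 genes (4.69%) were called, 176 higher in UNC1215 (1.37%) and 425 lower (3.32%). Scaled to TPM, where all values of a library sum to the same total, 391 were higher and 474 lower. The median of all genes was 0.00. Among the 45 pairs of libraries in the table, UNC1215 and GSK343 had the 6th fewest called genes, while UNC1215 and DMSO were the 2nd closest pair with 391 (3.05%). GSK343 and DMSO differed at 797 genes (6.22%), and at 107 (0.887%) in the replicate 2 table. With the GC trend removed, 316 of 11469 genes were called (2.76%), 105 higher (0.916%) and 211 lower (1.84%). With GSK343 replicate 2, 378 of 12058 were called (3.13%), 186 higher (1.54%) and 192 lower (1.59%). With the mean of the GSK343 replicates, 292 were called (2.42%), 113 higher (0.937%) and 179 lower (1.48%). The excess of genes lower in UNC1215 was present in the 3 forms that use GSK343 replicate 1 and not with replicate 2 alone. Of the 425 lower genes 92 were small RNA, clone or multi-locus rows, as were 49 of the 176 higher genes, and without such rows 127 were higher (1.06%) and 333 lower (2.78%). Of the genes in both tables, 120 were called higher (0.995%) and 286 lower (2.37%) by more than the replicate gap. The lower genes had a median transcript GC content of 58.6%, and the higher genes 43.7%.

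Many sterol genes were high in both libraries, and 0 of the 37 compared were called different between them. Across the 3 lists (mevalonate pathway, squalene to cholesterol, sterol sensing and uptake), 37 of 38 genes were compared. Against DMSO, 19 of 37 were called higher in UNC1215 (1.80% of all genes), 25 in GSK343 replicate 1 (4.78%) and 16 in GSK343 replicate 2 (0.564%), and 0 were called lower, against 1.26%, 1.44% and 0.323% of all genes. UNC1215 and GSK343 held the top 2 places among the 10 libraries for 22 of the 37 genes. GSK343 was highest of the 10 for 26 and UNC1215 for 2. Directly, 0 of 37 were called (4.69% of all genes), with differences from −0.999 to 0.73 and a median of −0.32, where 31 genes were lower in UNC1215 and 6 higher. Over all genes 6396 were lower and 6302 higher, and the median size of the direct difference, sign left out, was 0.29. The median was −0.33 with the GC trend removed and 0.05 with GSK343 replicate 2, where 15 were lower and 22 higher. Over all genes with GSK343 replicate 2, 5454 were lower and 6582 higher, with a median of 0.03. Sterol genes were thus mostly lower in UNC1215 than in GSK343 replicate 1, and close to all genes with replicate 2. The direct difference exceeded the replicate gap, taken from GSK343 minus DMSO in each replicate, for 16 of the 37. Over all genes the median size of that gap, sign left out, was 0.28, against 0.29 for the direct difference. The share of all genes past their gap was not counted, so the 16 are not read as a trait of sterol genes.

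**Figure D2:**
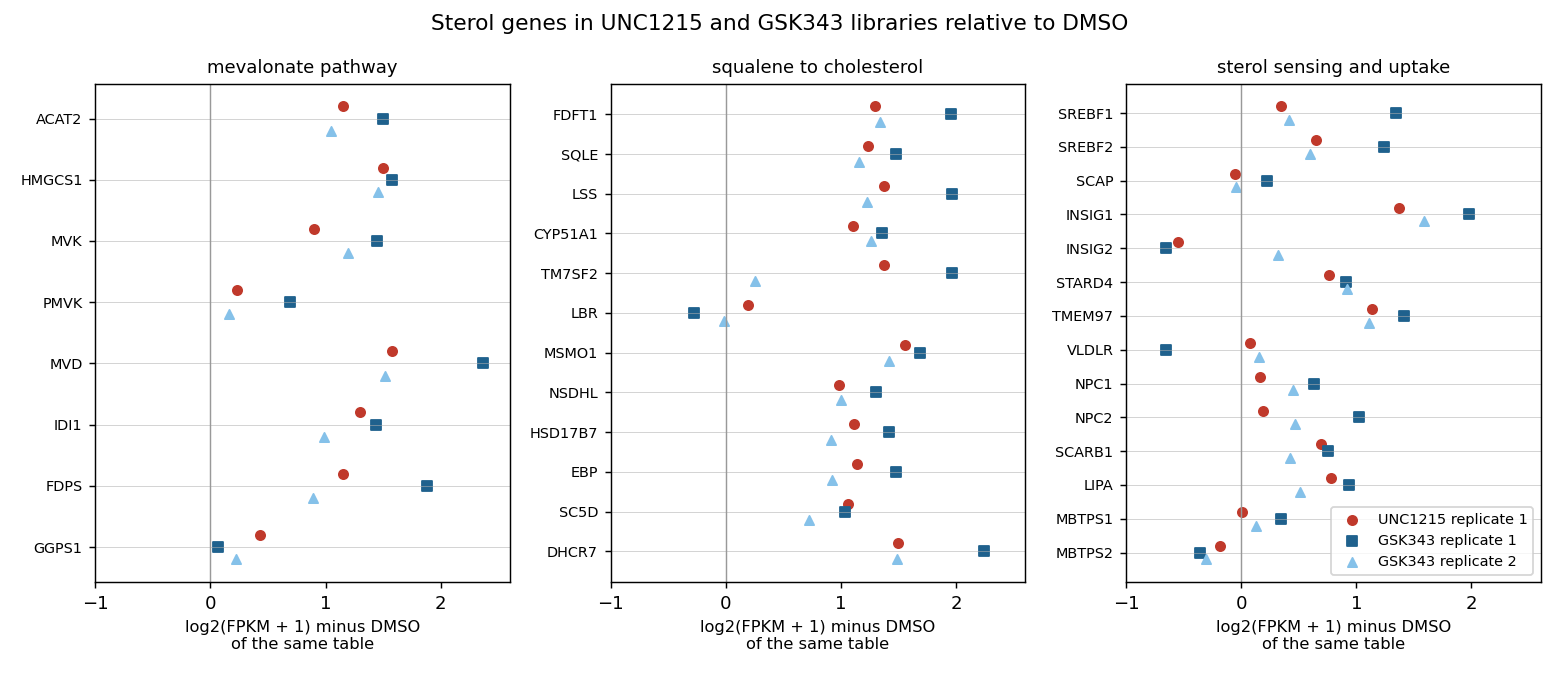
Difference from DMSO of the same table (log2 of FPKM + 1, horizontal axis) for 34 of the sterol genes compared, for UNC1215 (circles), GSK343 replicate 1 (squares) and GSK343 replicate 2 (triangles), 1 library each. For most genes of synthesis the circle lies left of the square and close to the triangle, and 0 of the 34 circles lies 1 or more from its square.

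Genes of the first steps of the mevalonate pathway stood above DMSO in both libraries. HMGCS1, which makes HMG-CoA, had 103 FPKM in UNC1215 and 109 FPKM in GSK343, against 35.8 FPKM in DMSO. The direct difference was −0.08, and BIX-01294 alone of the 10 libraries was higher, at 204 FPKM. ACAT2, the cytosolic thiolase, had 107 FPKM in UNC1215, 136 FPKM in GSK343 and 47.5 FPKM in DMSO. Both treated libraries stood above DMSO for these genes, UNC1215 less than GSK343 replicate 1.

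The widest gaps in the pathway were at MVD and FDPS. MVD, which makes isopentenyl diphosphate, had 96.2 FPKM in UNC1215 and 167 FPKM in GSK343, against 31.7 FPKM in DMSO, a direct difference of −0.79. In the replicate 2 table it had 119 FPKM in GSK343 and 41.1 FPKM in DMSO, which brought the difference to 0.06. FDPS, which makes farnesyl diphosphate, had 202 FPKM in UNC1215 and 335 FPKM in GSK343, against 90.3 FPKM in DMSO (−0.73, and 0.26 with replicate 2). MVD transcripts had a GC content of 65.6%, and the difference with the GC trend removed was −0.34. The kinases MVK and PMVK had direct differences of −0.55 and −0.46. MVK had 29.2 FPKM in UNC1215, 43.1 FPKM in GSK343 and 15.2 FPKM in DMSO. PMVK had 21.5 FPKM in UNC1215, 29.9 FPKM in GSK343 and 18.2 FPKM in DMSO, a smaller difference from DMSO (0.23 and 0.69) than that of MVK. The isomerase IDI1 had 37.5 FPKM in UNC1215, 41.3 FPKM in GSK343 and 14.7 FPKM in DMSO. GGPS1, which leads away from sterols to geranylgeranyl diphosphate, was the member higher in UNC1215 than in GSK343 replicate 1. It had 8.09 FPKM in UNC1215, 6.06 FPKM in GSK343 and 5.75 FPKM in DMSO. With replicate 2, 7 of the 9 members of the pathway were higher in UNC1215 and 2 lower. Their median was then 0.07, against 0.03 for all genes.

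From squalene on, the 13 enzymes had a median direct difference of −0.30, with −0.33 after removal of the GC trend and 0.14 with GSK343 replicate 2. DHCR7, the reductase of the last step of one branch, had 89.2 FPKM in UNC1215 and 151 FPKM in GSK343, against 31.0 FPKM in DMSO. Its direct difference of −0.75 was the largest in size of the 13, did not exceed the replicate gap of 0.75, and was 0.00 with GSK343 replicate 2. FDFT1, squalene synthase, had 214 FPKM in UNC1215 and 338 FPKM in GSK343, against 86.5 FPKM in DMSO (−0.66; −0.04 with replicate 2). LSS, which closes the sterol ring, had 65.5 FPKM in UNC1215 and 99.2 FPKM in GSK343, against 24.7 FPKM in DMSO (−0.59; 0.15 with replicate 2). In these 3 genes both treated libraries were above all others.

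For most of the remaining enzymes the difference was smaller in size. SQLE, squalene epoxidase, had 122 FPKM in UNC1215 and 145 FPKM in GSK343, against 51.5 FPKM in DMSO, a direct difference of −0.24. CYP51A1, the demethylase of lanosterol, had 131 FPKM in UNC1215 and 157 FPKM in GSK343, against 60.7 FPKM in DMSO. MSMO1, a methyl sterol oxidase, had 151 FPKM in UNC1215 and 166 FPKM in GSK343, against 50.7 FPKM in DMSO. The direct differences of CYP51A1 and MSMO1 were −0.25 and −0.14. NSDHL, HSD17B7 and EBP, which act on the ring, had direct differences of −0.32, −0.30 and −0.35. SC5D, the desaturase, was at 37.6 FPKM in UNC1215 and 36.9 FPKM in GSK343, against 17.5 FPKM in DMSO, with UNC1215 highest of the 10 libraries. LBR, which doubles as a lamin receptor, lay above DMSO in UNC1215 (0.20) and below it in GSK343 replicate 1 (−0.27). It had 36.6 FPKM in UNC1215, 26.2 FPKM in GSK343 and 31.9 FPKM in DMSO. In GSK343 replicate 2 it was at −0.02 from DMSO. The direct difference of 0.47 was 0.21 with the GC trend removed and 0.21 with replicate 2. TM7SF2, a sterol reductase, had 2.72 FPKM in UNC1215, 4.61 FPKM in GSK343 and 0.437 FPKM in DMSO, and its levels of 28.7 FPKM (GSK343) and 23.9 FPKM (DMSO) in the replicate 2 table were far above those of the replicate 1 table. Its direct difference was −0.60, against 1.115 with replicate 2.

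Among sterol sensors, SREBF1 had the largest gap. SREBF1, which encodes the SREBP of fatty acid synthesis, had 12.8 FPKM in UNC1215 and 26.6 FPKM in GSK343, against 9.88 FPKM in DMSO, a direct difference of −0.999. With GSK343 replicate 2, at 16.4 FPKM against 12.0 FPKM in its DMSO, the difference was −0.08. SREBF2 had 72.3 FPKM in UNC1215 and 110 FPKM in GSK343, against 45.8 FPKM in DMSO (−0.60; 0.05 with replicate 2). INSIG1 had 23.4 FPKM in UNC1215 and 36.3 FPKM in GSK343, against 8.48 FPKM in DMSO (−0.61; −0.22 with replicate 2). Relative to DMSO, INSIG1 was lower in UNC1215 than in either GSK343 library, while both SREBF genes were within 0.08 of GSK343 replicate 2. SCAP, the escort protein, had 22.5 FPKM in UNC1215, 27.5 FPKM in GSK343 and 23.5 FPKM in DMSO, and INSIG2 had 6.89 FPKM in UNC1215, 6.34 FPKM in GSK343 and 10.5 FPKM in DMSO. INSIG2 was at −0.65 from DMSO in GSK343 replicate 1 and at 0.32 in replicate 2, so that the difference between the compounds was 0.10 directly and −0.87 with replicate 2. The proteases that cut SREBP had differences from DMSO between −0.35 and 0.35 in both libraries. MBTPS1 had 33.8 FPKM in UNC1215, 43.1 FPKM in GSK343 and 33.7 FPKM in DMSO, and MBTPS2 had 2.90, 2.47 and 3.43 FPKM in the same order.

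Genes of sterol uptake and transport were mixed. TMEM97, which binds NPC1, had 76.1 FPKM in UNC1215 and 92.9 FPKM in GSK343, against 34.1 FPKM in DMSO. STARD4, a sterol carrier, had 31.9 FPKM in UNC1215 and 35.3 FPKM in GSK343, against 18.3 FPKM in DMSO. TMEM97 and STARD4 were above DMSO in both libraries, with direct differences of −0.28 and −0.14. NPC2, which hands cholesterol to NPC1 inside lysosomes, had 233 FPKM in UNC1215 and 416 FPKM in GSK343, against 205 FPKM in DMSO, a direct difference of −0.84, or −0.98 with the GC trend removed and −0.28 with replicate 2. NPC1 had 4.82 FPKM in UNC1215, 7.04 FPKM in GSK343 and 4.20 FPKM in DMSO. NPC1 and NPC2 were near the DMSO level in UNC1215 and above it in both GSK343 libraries, by 0.63 and 0.45 for NPC1 and by 1.02 and 0.46 for NPC2. SCARB1, the HDL receptor, had 22.2 FPKM in UNC1215, 23.2 FPKM in GSK343 and 13.3 FPKM in DMSO. LIPA, the lysosomal lipase, had 12.6 FPKM in UNC1215, 14.1 FPKM in GSK343 and 6.92 FPKM in DMSO. VLDLR was higher in UNC1215, at 7.01 FPKM, against 3.83 FPKM in GSK343 and 6.61 FPKM in DMSO, and was −0.08 with replicate 2.

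Some genes of fatty acid synthesis were also high in both libraries. Of 13 genes compared, 4 were called higher than DMSO in UNC1215 (1.80% of all genes), 7 in GSK343 replicate 1 (4.78%) and 3 in GSK343 replicate 2 (0.564%), and 0 were called between the 2 compounds (4.69%). The direct median was −0.35, −0.46 with the GC trend removed and −0.02 with replicate 2. FASN, fatty acid synthase, had 129 FPKM in UNC1215 and 251 FPKM in GSK343, against 50.9 FPKM in DMSO (−0.95; 0.18 with replicate 2). FADS2, a desaturase, had 162 FPKM in UNC1215 and 276 FPKM in GSK343, against 68.3 FPKM in DMSO. ACACA, the carboxylase of the first step, had 18.8 FPKM in UNC1215 and 34.8 FPKM in GSK343, against 13.7 FPKM in DMSO. ACSS2, which makes acetyl-CoA from acetate, had 8.10 FPKM in UNC1215 and 15.6 FPKM in GSK343, against 3.19 FPKM in DMSO. All 4 lay above DMSO in both libraries, and were lower in UNC1215 than in GSK343 replicate 1, with differences from −0.95 to −0.77. With replicate 2 the differences of FADS2, ACACA and ACSS2 were −0.02, −0.09 and 0.51. Genes of sterol efflux and LXR, the receptor for oxidised sterols, had 0 of 8 called. Their median was −0.34, −0.32 with the GC trend removed and 0.00 with replicate 2. NR1H2, which encodes LXR beta, had 27.2 FPKM in UNC1215, 36.6 FPKM in GSK343 and 23.1 FPKM in DMSO, and NR1H3, which encodes LXR alpha, had 2.93, 4.34 and 3.15 FPKM in the same order. APOE, a lipoprotein component, had 0.396, 1.74 and 0 FPKM in that order and a difference of −0.98, or −0.44 with the GC trend removed and −0.06 with replicate 2.

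Beyond sterols, the largest differences that met the rule for naming were at genes of little common function. To be named, a gene had to keep its direction and at least 50% of its size with GSK343 replicate 2 and reach 5 FPKM in UNC1215 or GSK343. Small RNA, clone and multi-locus rows were passed over. Of the called genes, 33 of 176 higher and 69 of 425 lower met this rule, so some larger differences are not named. FAH, the last enzyme of tyrosine breakdown, had 91.1 FPKM in UNC1215 and 25.2 FPKM in GSK343, against 27.0 FPKM in DMSO. The other 7 libraries lay between 14.6 and 42.8 FPKM. The direct difference was 1.82, with 1.91 after removal of the GC trend and 1.61 with GSK343 replicate 2, and the replicate gap was −0.21. HEATR5A had 12.2 FPKM in UNC1215 and 4.24 FPKM in GSK343, against 2.88 FPKM in DMSO (1.33; 1.84 with replicate 2), and SAHA was at 12.8 FPKM. FAH and HEATR5A were called against DMSO in UNC1215 as well, by 1.72 and 1.77, while in GSK343 replicate 1 they were at −0.10 and 0.44.

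For most other genes of the 15 highest, UNC1215 lay above DMSO and GSK343 below it, which held for 14 of the 15 on the GSK343 side. CCL26, a chemokine that attracts eosinophils, had 21.9 FPKM in UNC1215 and 6.20 FPKM in GSK343, against 11.2 FPKM in DMSO. CENPQ, a kinetochore protein, had 18.9 FPKM in UNC1215 and 6.67 FPKM in GSK343, against 11.8 FPKM in DMSO. HAUS3, a subunit of the augmin complex of the spindle, had 7.69 FPKM in UNC1215 and 2.26 FPKM in GSK343, against 3.96 FPKM in DMSO. GSK343 was the lowest of the 10 libraries for CENPQ and HAUS3, and in the replicate 2 table both were at −0.13 and −0.11 from DMSO. RAB30, a GTPase of the Golgi, had 10.8 FPKM in UNC1215, 3.62 FPKM in GSK343 and 8.04 FPKM in DMSO. ARHGAP42, a GTPase-activating protein, had 6.39 FPKM in UNC1215, 1.87 FPKM in GSK343 and 3.22 FPKM in DMSO. CTH, which makes cysteine, had 6.04 FPKM in UNC1215, 1.79 FPKM in GSK343 and 2.36 FPKM in DMSO. These 3 differed by 1.36, 1.37 and 1.33 directly, and by 0.80, 0.81 and 0.74 with replicate 2. NPPB, the precursor of the natriuretic peptide BNP, had 7.68 FPKM in UNC1215, 2.34 FPKM in GSK343 and 5.98 FPKM in DMSO, and GSK-J4 was at 335 FPKM. CCDC147 (2.19), GSG1 (1.40), FAM171B (1.33) and NUDT6 (1.30) completed the named genes together with 2 histone genes. NUDT6 overlaps FGF2 on the other strand, so its reads are uncertain. HIST1H4E had 7.92 FPKM in UNC1215 and was listed at 0 in GSK343, and HIST1H4C had 5.60 FPKM in UNC1215 and 1.04 FPKM in GSK343. Both have near-identical copies and are uncertain. With the GC trend removed all 15 lay between 1.06 and 3.05.

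**Figure D3:**
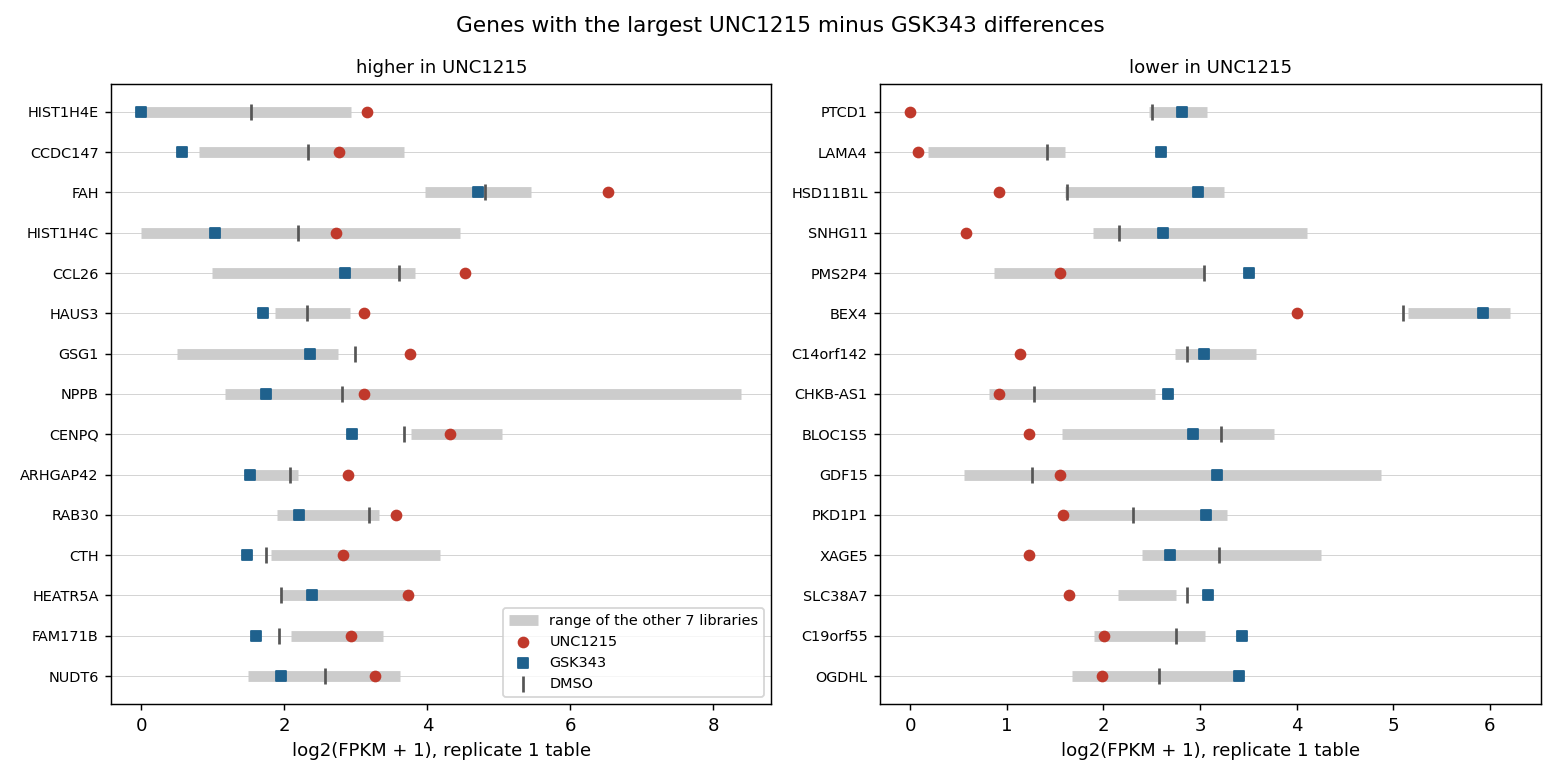
Levels in the replicate 1 table (log2 of FPKM + 1, horizontal axis) for UNC1215 (circles), GSK343 (squares) and DMSO (ticks), 1 library each. Shown are the 15 genes highest and the 15 lowest in UNC1215 minus GSK343 among genes that met the naming rule. Grey bars span the other 7 libraries. FAH at 91.1 FPKM and BEX4 at 15.1 FPKM in UNC1215 lie outside the range of all 9 other libraries.

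Several of the 15 lowest genes stood below every other library of the table in UNC1215. BEX4, of the brain-expressed X-linked family, had 15.1 FPKM in UNC1215 and 60.2 FPKM in GSK343, against 33.3 FPKM in DMSO, and the other 7 libraries lay between 34.6 and 73.3 FPKM. The direct difference was −1.93, with −2.08 after removal of the GC trend and −1.27 with replicate 2. C14orf142, which encodes the KEOPS subunit GON7, had 1.19 FPKM in UNC1215 and 7.26 FPKM in GSK343, against 6.30 FPKM in DMSO (−1.91; −1.59 with replicate 2). UNC1215 was the lowest of the 10 libraries for 9 of the 15 genes, including BEX4 and C14orf142. XAGE5, of a cancer and testis antigen family, had 1.34 FPKM in UNC1215, 5.44 FPKM in GSK343 and 8.20 FPKM in DMSO. SLC38A7, a lysosomal amino acid transporter, had 2.13 FPKM in UNC1215, 7.50 FPKM in GSK343 and 6.29 FPKM in DMSO. SNHG11, a host of small nucleolar RNA, had 0.493 FPKM in UNC1215, 5.15 FPKM in GSK343 and 3.49 FPKM in DMSO. These 3 were lower than DMSO in UNC1215 by more than 1 on the log2 scale and within 0.51 of it in GSK343.

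In a second pattern GSK343 stood above DMSO and UNC1215 below or near it. GDF15, a stress hormone, had 1.94 FPKM in UNC1215 and 8.07 FPKM in GSK343, against 1.40 FPKM in DMSO. It was 1.92 above DMSO in GSK343 replicate 1 and 1.11 in replicate 2, and the difference between the compounds was −1.63, or −0.81 with replicate 2. LAMA4, a laminin chain, had 0.0547 FPKM in UNC1215, 5.04 FPKM in GSK343 and 1.67 FPKM in DMSO (−2.52), with 0.743 FPKM in GSK343 replicate 2. OGDHL, a mitochondrial dehydrogenase subunit, had 2.95 FPKM in UNC1215, 9.62 FPKM in GSK343 and 4.96 FPKM in DMSO. HSD11B1L and C19orf55 differed by −2.06 and −1.44. The other 5 named rows are uncertain in what they count. PTCD1 had 0.00167 FPKM in UNC1215, 6.05 FPKM in GSK343 and 463 FPKM in GSK343 replicate 2, and BLOC1S5 had 1.35, 6.63 and 180 FPKM in the same order. Both share exons with read-through transcripts, and their levels differ between the tables. PMS2P4 (−1.95) and PKD1P1 (−1.48) are pseudogenes, and CHKB-AS1 (−1.75) is antisense to CHKB.

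Of the 32 other lists, 13 had a median at least 0.25 from that of all genes in the direct comparison, sterol efflux and fatty acid synthesis among them. Few of their members were called, where the share of all genes was 4.69% (1.37% higher and 3.32% lower), and many of these medians were close to 0 with GSK343 replicate 2, where the median of all genes was 0.03. Immediate early genes, transcription factors that respond fast to stimuli, were lower in UNC1215 for 15 of 15, with a median of −0.44, and 2 were called. The median was −0.27 after removal of the GC trend and −0.31 with replicate 2, and 12 of 15 were lower in each of these forms. JUNB had 8.68 FPKM in UNC1215 and 28.5 FPKM in GSK343, against 8.78 FPKM in DMSO (−1.61; −0.33 with replicate 2). FOS had 0.634 FPKM in UNC1215 and 3.46 FPKM in GSK343, against 0.882 FPKM in DMSO (−1.45; −0.64 with replicate 2). UNC1215 was near DMSO for both genes, and GSK343 was above it. NR4A1 and ATF3, factors of the same kind, differed by −0.93 and −0.86, and by −0.13 and −0.23 with replicate 2.

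Targets of ATF4 and CHOP, the factors of amino acid and unfolded protein stress, had a median of −0.58 over 17 genes. Of these 1, GDF15, was called lower, against 3.32% of all genes, and 0 were called with replicate 2. The median was −0.20 with the GC trend removed and −0.23 with replicate 2. DDIT4, which restrains mTORC1, had 22.1 FPKM in UNC1215 and 40.9 FPKM in GSK343, against 18.1 FPKM in DMSO, and 41.0 FPKM in GSK343 replicate 2. Its difference was −0.86 directly and −0.89 with replicate 2, with a replicate gap of −0.03. FGF21, a secreted metabolic hormone, had 1.32 FPKM in UNC1215 and 3.58 FPKM in GSK343, against 2.24 FPKM in DMSO (−0.98 both directly and with replicate 2). These 2 genes thus gave nearly the same difference with either GSK343 library. Genes that respond to YAP and TGF-beta had a median of −0.35 over 18, −0.31 with the GC trend removed and −0.24 with replicate 2. Of the 18, 2 were called lower and 0 higher, against 3.32% and 1.37% of all genes. With replicate 2, 0 were called lower and 1 higher, against 1.59% and 1.54% of all genes. CTGF, a matrix protein, had 83.5 FPKM in UNC1215 and 178 FPKM in GSK343, against 91.7 FPKM in DMSO (−1.08; −0.69 with replicate 2). LTBP2, which binds microfibrils, had 21.6 FPKM in UNC1215 and 44.4 FPKM in GSK343, against 27.5 FPKM in DMSO (−1.01; −0.56 with replicate 2). PMEPA1 and TGFB1 differed by −0.99 and −0.73, and by −0.42 and −0.47 with replicate 2.

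Lysosome genes were lower in UNC1215 for 26 of 31, with a median of −0.43, or −0.34 after removal of the GC trend and −0.12 with replicate 2. Of the 31, 2 were called lower and 0 higher, against 3.32% and 1.37% of all genes, too few to set the list apart. CLCN7, a chloride exchanger, had 9.93 FPKM in UNC1215 and 29.04 FPKM in GSK343, against 10.1 FPKM in DMSO (−1.46; −0.61 with replicate 2). ARSA, arylsulfatase A, had 8.81 FPKM in UNC1215 and 21.7 FPKM in GSK343, against 10.8 FPKM in DMSO (−1.21; −0.49 with replicate 2). GSK343 was the highest of the 10 libraries for both. GAA, acid alpha-glucosidase, and MCOLN1, a calcium channel, differed by −0.97 and −0.96, and by −0.32 and −0.76 with replicate 2. Autophagy core genes, which build the autophagosome, had a median of 0.02 over 30, with 1 called higher and 2 lower.

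Genes of p53 were lower in UNC1215 for 16 of 18, with a median of −0.37, or −0.30 and −0.19 in the other forms, and 0 were called. CDKN1A, the cell cycle inhibitor p21, had 47.2 FPKM in UNC1215 and 92.7 FPKM in GSK343, against 57.9 FPKM in DMSO (−0.96; −0.46 with replicate 2). G2 and mitosis genes were higher in UNC1215 for 24 of 24, with a median of 0.45 and 0 called. The median was 0.29 with the GC trend removed and 0.19 with replicate 2, where 21 of 24 were higher, and the median GC content of the list was 43.8%. BUB1B, a spindle checkpoint kinase, had 41.9 FPKM in UNC1215 and 26.4 FPKM in GSK343, against 36.7 FPKM in DMSO (0.65; 0.26 with replicate 2). KIF11, BUB1 and CENPE differed by 0.64, 0.53 and 0.59, and by 0.25, 0.32 and 0.46 with replicate 2. UNC1215 was the highest of the 10 libraries for BUB1B, KIF11 and BUB1.

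Several lists had a median nearer to 0 with GSK343 replicate 2 than as measured or with the GC trend removed. Cytosolic ribosomal proteins were lower in UNC1215 for 73 of 74, with a median of −0.34, and 1 was called lower (3.32% of all genes). That gene, RPL28, had 288 FPKM in UNC1215 and 590 FPKM in GSK343, against 239 FPKM in DMSO, a difference of −1.03 that was 0.12 with replicate 2. With replicate 2, 63 of the 74 were lower, with a list median of −0.12. After removal of the GC trend, 74 of 74 were lower, with a list median of −0.33. Ribosome biogenesis (0.34 directly, −0.02 with replicate 2), tRNA synthetases (0.40 and 0.06), heat shock (0.45 and 0.14) and interferon response (−0.28 and 0.03) had 0 called. After removal of the GC trend, their medians were 0.37, 0.36, 0.36 and −0.36 in the same order. NOP16, of ribosome assembly, had 37.1 FPKM in UNC1215 and 20.1 FPKM in GSK343, against 40.7 FPKM in DMSO (0.86; −0.16 with replicate 2). HSPD1, a mitochondrial chaperonin, had 293 FPKM in UNC1215 and 184 FPKM in GSK343, against 317 FPKM in DMSO (0.67; 0.06 with replicate 2). TARS, the threonyl-tRNA synthetase, had 139 FPKM in UNC1215 and 80.7 FPKM in GSK343, against 114 FPKM in DMSO (0.77; 0.21 with replicate 2). For these 3 genes UNC1215 was nearer to DMSO than GSK343 replicate 1 was.

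**Figure D4:**
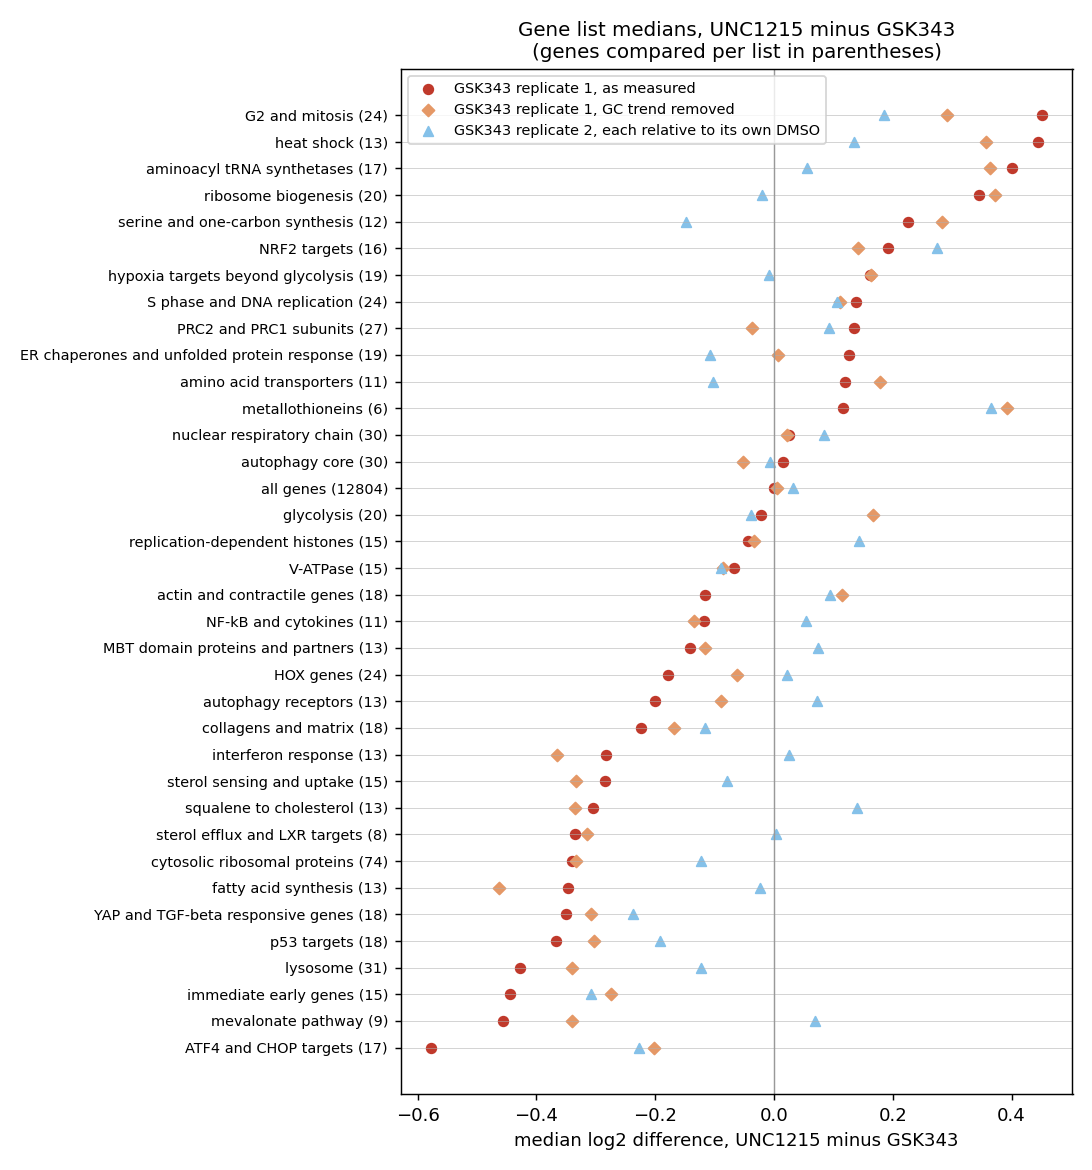
Median UNC1215 minus GSK343 difference (log2 of FPKM + 1, horizontal axis) of each gene list, as measured, with the GC trend removed and with GSK343 replicate 2. The 3 sterol lists lie between −0.46 and −0.28 as measured and between −0.08 and 0.14 with replicate 2.

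Transcripts of EZH2 and L3MBTL3, the targets named above for the compounds, were not called different between the libraries. EZH2 had 15.1 FPKM in UNC1215 and 8.04 FPKM in GSK343, against 11.8 FPKM in DMSO (0.83; 0.52 with replicate 2). Its partner SUZ12 had 23.5 FPKM in UNC1215 and 15.5 FPKM in GSK343, against 20.9 FPKM in DMSO (0.57; 0.32 with replicate 2). Of 27 subunits of PRC2 and PRC1, the Polycomb complexes, 0 were called higher and 1 lower, against 1.37% and 3.32% of all genes. Their median was 0.14 as measured, −0.036 with the GC trend removed and 0.09 with replicate 2. The PRC2 subunit EED had 24.8 FPKM in UNC1215, 19.5 FPKM in GSK343 and 22.4 FPKM in DMSO (0.33). In the replicate 2 table EED had 121 FPKM in GSK343 and 21.1 FPKM in DMSO, which brought its difference to −2.32. L3MBTL3 had 2.09 FPKM in UNC1215 and 2.40 FPKM in GSK343, against 2.46 FPKM in DMSO (−0.14, and −0.63 with replicate 2). Its relative L3MBTL1 had 0.901 FPKM in UNC1215 and 4.07 FPKM in GSK343, against 2.68 FPKM in DMSO (−1.42; −1.21 with replicate 2), and was the lowest of the 10 libraries in UNC1215 and the highest in GSK343. Of 13 MBT domain proteins and partners it was the 1 called. Transcript levels of a target do not check that a compound was active.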

How the data were processed

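Messenger RNA of U2OS cells was sequenced after 15 cycles of PCR on ThruPLEX libraries, per the labels' protocols; strand is not stated. The authors deposited FPKM per gene in a table for each replicate number. FastQC, cutadapt, TopHat2 and the hg19 build are named in the submitters' processing notes, and the program that gave FPKM is not given in the sources used here. The members and gene lists were chosen with earlier results of these data known. Values were taken as log2(FPKM + 1) for genes averaging 1 FPKM or more across the 10 libraries, and 1 row that names no gene was dropped. With 1 UNC1215 library there is no test, and a difference of at least 1 was called. The replicate gap is GSK343 minus DMSO in replicate 1 less the same in replicate 2. GC content was that of the longest GENCODE protein-coding transcript, matched for 89.6% of genes, and its trend was removed by lowess with a fraction of 0.3 (statsmodels 0.14.6, pandas 2.3.3). Named genes were all sterol list members, the targets, the 15 largest differences per direction (see the rule in the text; small RNA, clone, LOC and multi-locus rows passed over) and up to 4 members of each list whose median lay at least 0.25 from that of all genes. The difference and the removal of the GC trend were tested on GSK343 replicate 1 values with simulated noise and known shifts. The shifts were planted in genes of high level only, so shifts in low genes were not covered. Alternatives were the pseudocount, the filter, the scaling, row types and the GSK343 library; GC removal and the mean of the GSK343 replicates were added after seeing the data. Reads without molecular identifiers are not independent molecules. Values of some list members are not reported here by name; the list counts and medians include them.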

Additional observations from a re-analysis of the deposited data

How the results depend on the processing

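Against 176 genes higher and 425 lower in UNC1215 as reported, a pseudocount of 0.1 gave 394 and 757, a pseudocount of 5 gave 40 and 92, and a mean of at least 5 FPKM gave 60 and 183. Scaling to TPM gave 391 higher and 474 lower. Removal of the GC trend gave 105 and 211, and the mean of the GSK343 replicates 113 and 179, both chosen after seeing the data. Without GSK343 replicate 1 there were 186 higher and 192 lower, the median of the mevalonate pathway was 0.070, that of squalene to cholesterol was 0.14, and RPL28 was at 0.12 in place of −1.03. The sensing and uptake median was −0.08 without GSK343 replicate 1, against −0.28. Scaling to TPM gave −0.20 for squalene to cholesterol and −0.17 for sensing and uptake, and the mean of the GSK343 replicates gave −0.19 for the mevalonate pathway and −0.09 for squalene to cholesterol, against −0.30, −0.28, −0.46 and −0.30 as reported. Counts without a filter, with median centring and without small RNA and clone rows were within 1.5 times of those reported. Of 38 named genes called as reported, 12 were called at a pseudocount of 5, 19 without GSK343 replicate 1 and 32 of 35 with the GC trend removed. Most of the 38 were named by a rule that used GSK343 replicate 2, so their sign there was set by the choice. No paired analysis was possible because UNC1215 had 1 library and the groups share only replicate number 1. Absolute depth is unknown, and values near 0 FPKM rest on few reads.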

Other observations

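Genes for which 1 library stood at least 1 log2 unit beyond all 9 others were counted among 10178 genes. UNC1215 stood above all others for 1 gene, FAH, and below all others for 6, which were PTCD1, C14orf142, DKFZp686J1569, SNHG11, XAGE5 and BEX4. GSK343 stood above all others for 12 genes and below for 0, against 289 above and 66 below in BIX-01294.

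Among the 12 were GPNMB, a glycoprotein of lysosomes and melanosomes, and PNPLA3, a lipase of lipid droplets. GPNMB had 18.9 FPKM in UNC1215 and 39.0 FPKM in GSK343, against 5.29 FPKM in DMSO, and among replicate 2 libraries 11.01 FPKM in GSK343 and 4.98 FPKM in DMSO. PNPLA3 had 5.10 FPKM in UNC1215 and 11.5 FPKM in GSK343, against 1.45 FPKM in DMSO, and among replicate 2 libraries 4.59 FPKM in GSK343 and 1.88 FPKM in DMSO. For both genes UNC1215 was the library next below GSK343. GLI1, a factor of Hedgehog signalling, had 5.93 FPKM in UNC1215 and 17.4 FPKM in GSK343, against 2.79 FPKM in DMSO, but 4.51 FPKM in GSK343 and 4.11 FPKM in DMSO of the replicate 2 table.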
